A study of Homo sapiens with 12 samples.

Results

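The comparison described here sets HCT116 cells with the CR3 construct against HCT116 cells with the reverse construct, at the level of single genes. HCT116 cells are a long-used colorectal carcinoma line of epithelial character. The groups compared were CR3 with doxycycline (3 libraries) and reverse with doxycycline (3 libraries), 6 of the 12 libraries of the series. The other 6 came from the genotypes mCherry and scramble, 3 each, also with doxycycline, and enter as a point of reference. All 4 genotypes had received doxycycline, a drug used to switch on inducible constructs, in a dose that the labels write as 1 ug/ul, for 48 before extraction, a time whose unit the labels leave out. Genes were taken in when at least 3 of the 6 libraries held 10 or more reads. This rule took in 15665 of the 63677 identifiers in the table. In 526 of them at least 1 value could be read in more than 1 way, and the remaining 15139 were tested.

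Biomolecular condensates are membraneless assemblies that form when proteins and RNA interact through many weak contacts. In the nucleus they can gather transcription factors, the Mediator complex and BET proteins at strong enhancers, and in the cytoplasm they include stress granules and P-bodies. In colorectal cancer cells, strong enhancers lie near growth and lineage genes such as MYC and the Wnt factor TCF7L2. The title of the series describes CR3 as a peptide that perturbs condensates. No source used here gives the amino acid sequences of CR3 and of the reverse construct, so the structural relation between them is not described. The series' text speaks of cell clones without saying how many carried each construct. An effect of a construct and a difference between clones therefore cannot be told apart, for CR3 and for reverse alike.

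Library totals ran from 17431475 to 21170925 reads in CR3 and from 18938607 to 21954845 in reverse. All levels below are in normalized reads, that is, reads over the size factor of the library. The number of genes with at least 1 read was 22849 to 23667 in CR3 and 21451 to 22357 in reverse. Replicate libraries varied more than counting alone allows, with chi-square values of 3.52 to 8.92 per degree of freedom between pairs, and nothing in the labels says that they came from separate cultures, so p-values measure only the spread between these libraries. All 22 epithelial markers had reads in both groups. Of 20 markers of intestinal epithelium, 5 passed the read filter, and FABP1, TFF3 and SPINK1 had no read in either group.

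CR3 and reverse cells differed at many genes. With limma, 5218 of 15139 genes passed an adjusted p of 0.05 (34.5%), of which 2626 were higher in CR3 (17.3%) and 2592 lower (17.1%). Among the genes called, increases were the larger changes: the median log2 fold change was 0.50 among the higher genes, -0.30 among the lower ones and 0.007 over all genes tested. At least 2-fold changes comprised 807 increases (5.33%) and 54 decreases (0.357%). Both contrasts rest in part on genes that passed the filter through 1 group. Under 10 reads in all 3 reverse libraries were 549 of the 2626 higher genes and 547 of the 807. Under 10 reads in all 3 CR3 libraries were 29 of the 2592 lower genes and 25 of the 54. Among the genes called, 2531 of the 2626 increases and 2495 of the 2592 decreases had no overlap between the CR3 and the reverse libraries. Over all genes tested, CR3 lay above reverse in every library for 3451 genes (22.8%) and below for 3376 (22.3%). The balance of increases and decreases depended on the scaling. With each library scaled by its total alone, the median over all genes moved from 0.007 to 0.094, and 4056 genes were higher and 1546 lower. Fold changes are on the scale log2(normalized reads + 1), which understates the change of genes with few reads.

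The shares of higher and lower genes differed between expression levels. Among genes with a mean of at most 20 normalized reads over the 6 libraries, 26.53% were higher and 3.12% lower in CR3. Between 20 and 100 the shares were 23.59% and 4.84%, between 100 and 500 they were 18.03% and 10.72%, and between 500 and 2000 they were 14.63% and 20.78%. Above 2000 normalized reads, 10.37% were higher and 39.67% lower. The shares at low levels hold genes that passed the read filter through 1 group alone, such as 305 of the 365 higher genes in the lowest class, which had under 10 reads in all reverse libraries. Without the genes under 10 reads in all libraries of CR3 or of reverse, the shares from the lowest to the highest class were 5.80%, 16.5%, 17.4%, 14.6% and 10.3% higher and 2.22%, 5.01%, 10.7%, 20.8% and 39.7% lower. The share of lower genes thus still rose with level, while that of higher genes no longer fell from the lowest class on. In reads, the higher genes made up 12.5% to 13.2% of each CR3 library and 9.42% to 9.65% of each reverse library. The lower genes made up 36.4% to 36.9% in CR3 and 42.1% to 42.5% in reverse. The 807 genes with at least 2-fold increases took only 0.358% to 0.397% of the reads in CR3 and 0.054% to 0.058% in reverse.

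**Figure D1:**
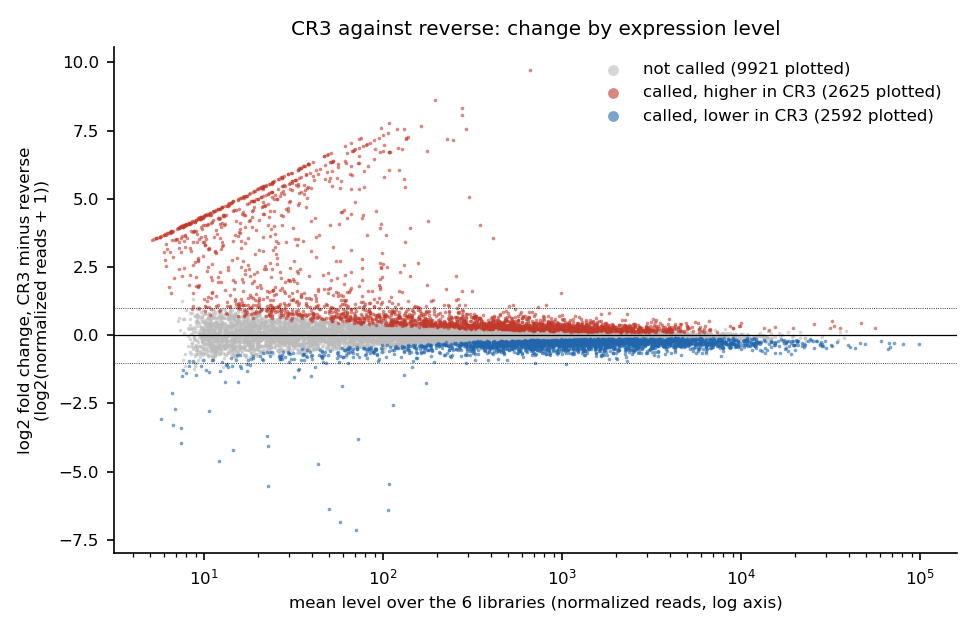
Each point is a gene tested. The horizontal axis is its mean level over the 6 libraries in normalized reads (log axis) and the vertical axis its log2 fold change, CR3 minus reverse. Red points (higher in CR3) form a steep band on the left, the genes nearly absent from reverse, and blue points (lower in CR3) lie mostly just under 0 on the right. Dotted lines mark 2-fold changes.

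Most of the large increases were genes with almost no reads in reverse cells, and their number depends on how such low values are treated. It was 1493 without a read filter, 307 with a filter of 50 reads, and 383 where the lost decimal marks were restored without using the group labels. Under 10 reads in all 3 reverse libraries were 562 tested genes, and 549 of these were called higher. Such genes passed the read filter through their CR3 reads, so this count follows from the filter. At least 10 reads in some reverse library were found for 260 of the 807 large increases. A total of 189 genes had no read in any reverse library and 10 or more in each CR3 library, and 94 of them had none in the mCherry and scramble libraries either. The opposite pattern, no read in CR3 and 10 or more in each reverse library, was seen for 5 genes.

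Among the largest increases with a mean of at least 100 normalized reads were LAPTM5, LUZP4, NID1, IRS4, TUB, NPTX1, CBS, SPART, DZIP1, ADAMTS1 and CBR1. LAPTM5 (ENSG00000162511, GRCh38 chr1:30732469-30757820) encodes a protein of lysosomal membranes, studied mostly in lymphocytes. Its levels were 1312.6, 1394.7 and 1271.2 normalized reads in CR3 and 1.0, 0.0 and 0.9 in reverse. All CR3 libraries thus stood far above all reverse libraries, which held 2 LAPTM5 reads in total. The ratio was 2028 with an exact 95% counting interval of 561.1 to 16750, which covers counting error only, and the limma adjusted p was 1.19e-11. LUZP4 (chrX:115289727-115307556), known from testis and some cancers, stood at 397.0, 406.1 and 376.3 in CR3 and at 0.0 in each reverse library. Against a floor of 3 reads per library it was at least 132.7-fold higher in CR3.

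NID1 (chr1:235975830-236065162) encodes nidogen, which links laminin to collagen IV in basement membranes. It stood at 513.8, 617.5 and 531.4 normalized reads in CR3 and at 4.2, 0.0 and 0.0 in reverse (log2 fold change 8.32, SE 0.731, limma adjusted p 1.13e-07). IRS4 (chrX:108732482-108736409), an adaptor of insulin receptor signaling, reached 487.7, 586.8 and 575.0 in CR3 against 2.1, 0.0 and 1.8. CBS (chr21:43053191-43076943), the enzyme that makes cystathionine, reached 619.4, 553.5 and 565.5 against 2.1, 1.0 and 3.6, a log2 fold change of 7.57 (SE 0.454).

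TUB, a protein of neuronal signaling and cilia, had no read in reverse and was at least 73.4-fold higher in CR3, where it stood at 190.6, 215.8 and 246.6. The 5 other genes had 1 to 3 reads in the reverse libraries together. Their ratios were 328.4 for the synaptic pentraxin NPTX1 (interval 112.1 to 1595), 733.6 for SPART (131.3 to 29010) and 401.2 for the ciliary gene DZIP1 (110.7 to 3318). For the metalloprotease ADAMTS1 the ratio was 652.3 (116.7 to 25800) and for the carbonyl reductase CBR1 616.5 (110.3 to 24390). Intervals this wide show that the size of the change is poorly fixed by so few reads, while the CR3 values themselves ranged only from 191.3 to 335.9.

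**Figure D2:**
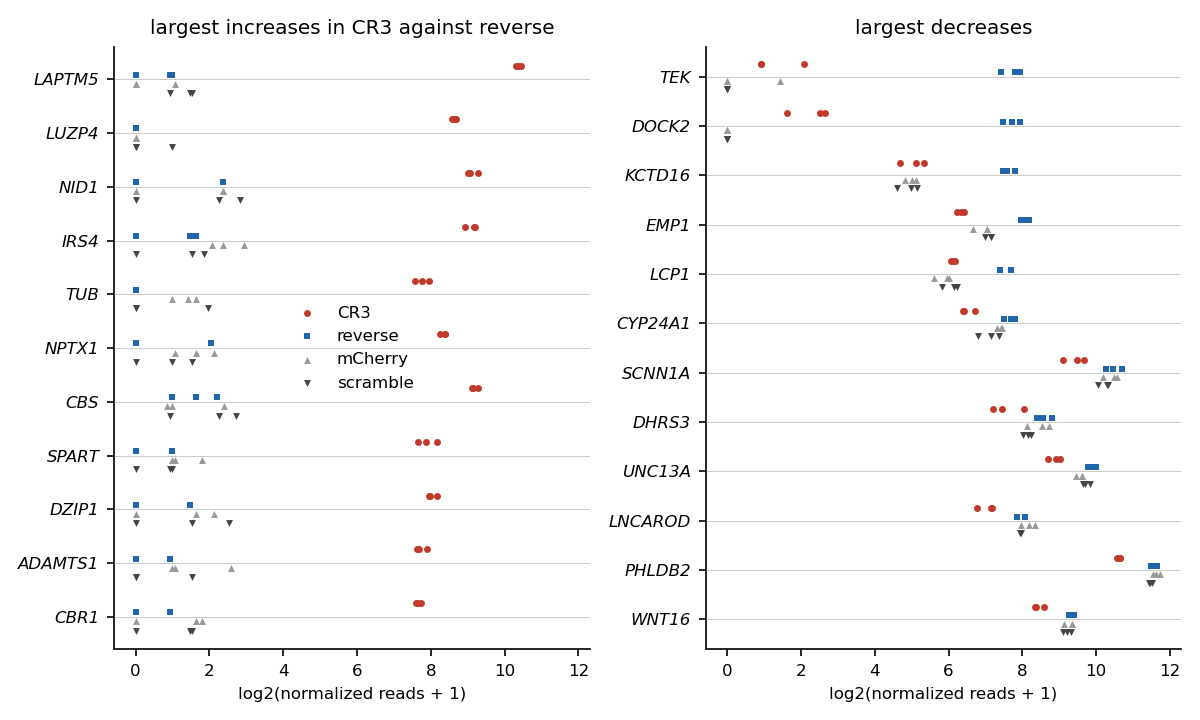
Each point is 1 library, with log2(normalized reads + 1) on the horizontal axis. The rows are genes from among the largest increases (left) and the largest decreases (right) in CR3 against reverse, among genes with a mean of at least 100 normalized reads. On the left, red CR3 points stand alone above 7 while the reverse, mCherry and scramble points lie under 3. On the right, TEK, DOCK2, KCTD16 and LCP1 have blue reverse points standing apart from all other groups, whereas PHLDB2 and WNT16 have red CR3 points standing apart.

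Stretches of DNA upstream of 4 of these genes are shown because the genes share the near absence of reads in reverse while their start regions differ in CpG content, a feature of promoters that are often unmethylated. The sequences are from RefSeq (GRCh38.p14), 5′ to 3′ on the gene's strand, from 250 bases before the RefSeq start up to that start or to the gene's first base in GENCODE, whichever comes first. Capitals mark CG pairs. LAPTM5 (chr1:30757821-30758024, minus strand) has 3 CG pairs in 204 bases. LUZP4 (chrX:115289465-115289714, plus strand) has 7 in 250. IRS4 (chrX:108736564-108736813, minus strand) has 16 in 250, and NID1 (chr1:236065163-236065340, minus strand) has 22 in 178.
LAPTM5: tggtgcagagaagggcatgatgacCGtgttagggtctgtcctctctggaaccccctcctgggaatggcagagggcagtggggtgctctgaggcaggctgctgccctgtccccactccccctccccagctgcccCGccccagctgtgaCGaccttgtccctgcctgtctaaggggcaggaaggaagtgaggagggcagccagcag
LUZP4: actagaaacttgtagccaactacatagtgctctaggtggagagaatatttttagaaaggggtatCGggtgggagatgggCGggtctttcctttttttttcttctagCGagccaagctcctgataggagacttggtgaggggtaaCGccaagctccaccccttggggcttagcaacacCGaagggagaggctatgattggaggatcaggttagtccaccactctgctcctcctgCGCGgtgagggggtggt
IRS4: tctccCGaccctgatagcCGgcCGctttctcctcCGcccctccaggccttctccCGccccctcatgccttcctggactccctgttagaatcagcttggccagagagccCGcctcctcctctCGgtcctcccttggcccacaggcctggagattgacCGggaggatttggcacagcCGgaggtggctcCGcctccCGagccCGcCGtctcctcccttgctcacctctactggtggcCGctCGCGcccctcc
NID1: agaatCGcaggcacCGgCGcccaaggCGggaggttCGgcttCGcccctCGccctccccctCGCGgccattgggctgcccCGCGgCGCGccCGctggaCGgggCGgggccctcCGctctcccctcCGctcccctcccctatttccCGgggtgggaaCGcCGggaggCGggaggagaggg

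Over the whole set, 300-base RefSeq promoters (250 bases before to 50 after the start) were matched for 10638 tested genes by symbol. A CpG observed-over-expected ratio of 0.6 or more was found in 82.7% of them. The share was 78.1% for the genes higher in CR3, 88.1% for the lower genes and 68.9% for the at least 2-fold higher genes. Tested genes under 100 normalized reads, which hold most of the large increases, had 65.3%. Among the genes with no read in reverse and 10 or more in each CR3 library, 131 had a promoter and 80.2% of these were CpG-rich by that measure. These shares are a description of the gene sets and carry no test.

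Large decreases were few among the genes tested, and many of them were genes in which reverse stood apart from mCherry and scramble. In simulated data, only 3 of 25 genes at a fold of 0.1 in CR3 were tested, against 25 of 25 at a fold of 10. Large decreases may therefore be undercounted. The 9 genes with at least 2-fold lower levels in CR3 and a mean of at least 100 normalized reads were TEK, DOCK2, KCTD16, EMP1, LCP1, CYP24A1, SCNN1A, DHRS3 and UNC13A. In the same fit, reverse was also set against the mean of mCherry and scramble. That contrast called 64 genes (0.423%), 41 higher and 23 lower in reverse, while CR3 against the mean of mCherry and scramble called 5930 (39.2%). These contrasts share libraries with the main one and are given only side by side. Of the 54 large decreases, 25 were called in the first contrast as higher in reverse, and 26 in the second as lower in CR3. A further 7, TEK and DOCK2 among them, were called higher in CR3 than in mCherry and scramble while lying far below reverse. Of the 807 large increases, 17 were called as lower in reverse and 779 as higher in CR3.

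TEK (chr9:27109141-27230175), the angiopoietin receptor of endothelial cells, stood at 0.9, 0.9 and 3.2 normalized reads in CR3 and at 221.8, 168.7 and 245.6 in reverse. It averaged 0.561 in mCherry and 0.0 in scramble. Reverse was thus the only one of the 4 groups with more than a few reads. The log2 fold change of CR3 against reverse was -6.41 (SE 0.41, limma adjusted p 3.18e-09). DOCK2 (chr5:169637247-170083382), a Rac activator of blood cells, stood at 4.7, 5.3 and 2.1 in CR3, at 245.8, 177.9 and 210.5 in reverse and at 0.0 in mCherry and scramble. Here CR3 held a few reads where mCherry and scramble held none, and reverse was again far above all.

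KCTD16 (chr5:144170832-144485686), an auxiliary subunit of GABA-B receptors, stood at 39.2, 24.6 and 34.0 in CR3 and at 219.8, 176.9 and 190.7 in reverse. Its means in mCherry and scramble were 30.6 and 29.4, close to CR3, and the log2 fold changes were -2.57 for CR3 against reverse and 2.67 for reverse against the mean of the other 2. LCP1 (chr13:46125920-46211871), the actin bundler L-plastin, showed the same order, with 69.1, 65.8 and 71.2 in CR3, 207.3, 167.7 and 204.2 in reverse, and means of 57.6 and 66.1 in mCherry and scramble. EMP1 (chr12:13196716-13219939), an epithelial membrane protein, stood at 73.8, 85.1 and 79.7 in CR3 and 289.6, 264.8 and 248.2 in reverse. Its means of 120.3 in mCherry and 135.5 in scramble lay between, and it was called both as higher in reverse (log2 fold change 1.06, limma adjusted p 3.19e-05) and as lower in CR3 (-0.67, limma adjusted p 0.000165).

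The 5 genes with no read in CR3 and 10 or more in each reverse library, named after their values were seen, were UGT2B7, KCNMB2, TACR1, TRIM50 and AC008060.4. UGT2B7, a glucuronosyltransferase of liver and gut, stood at 135.4, 152.4 and 135.8 in reverse and was at least 49.1-fold lower in CR3. The potassium channel subunit KCNMB2 stood at 121.9, 102.3 and 122.3 and was at least 40.2-fold lower, and the substance P receptor TACR1 at least 15.9-fold lower. None of these 3 had a read in mCherry or scramble. TRIM50 and AC008060.4 were at least 5.19-fold and 8.47-fold lower. TRIM50 had a few reads in mCherry and scramble, and AC008060.4 a few in mCherry. SI, the sucrase-isomaltase of the intestinal brush border, stood at 110.4, 98.2 and 91.7 in reverse and had 1 read in CR3. The hemidesmosome collagen COL17A1 stood at 129.2, 117.6 and 160.1 in reverse and at 10.3, 4.4 and 13.8 in CR3.

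**Figure D3:**
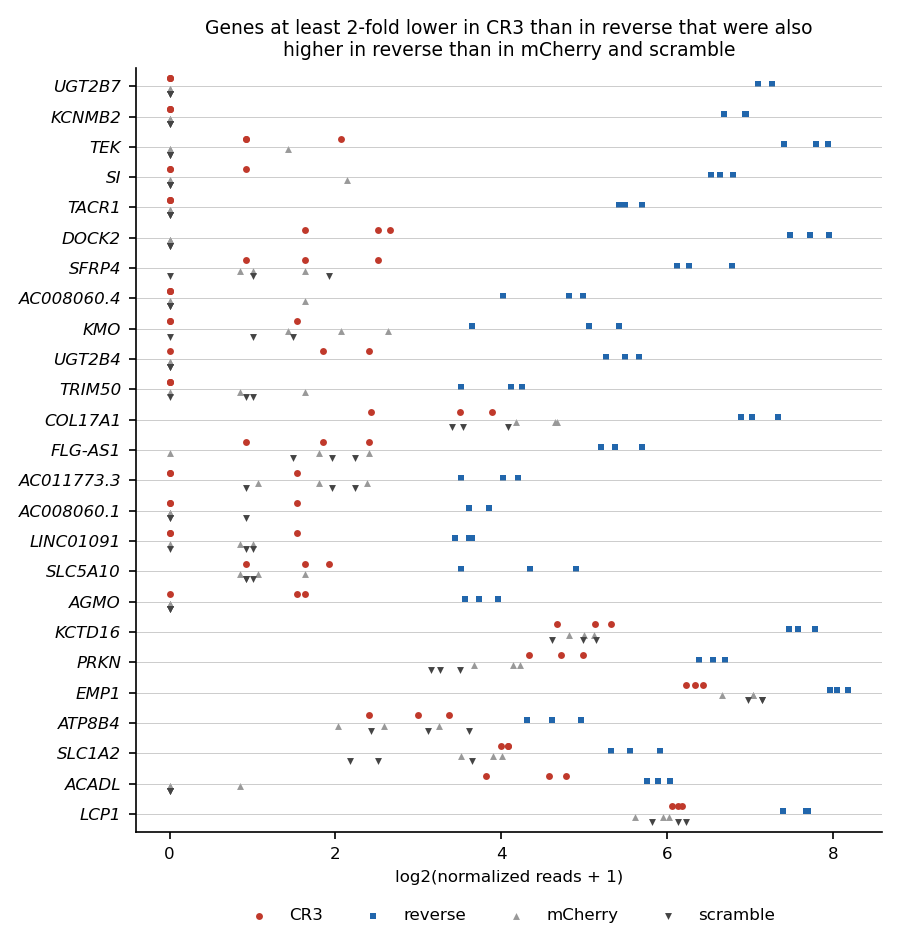
Each point is 1 library, with log2(normalized reads + 1) on the horizontal axis, for the 25 genes that were at least 2-fold lower in CR3 than in reverse and also called higher in reverse than in the mean of mCherry and scramble. Blue reverse points lie to the right in every row. For 6 of the 25 genes, among them UGT2B7, KCNMB2 and DOCK2, all 6 mCherry and scramble libraries had no read.

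The upstream stretches of TEK, DOCK2 and KCTD16 are shown for comparison with those of the genes that rose, in the same form and with CG pairs in capitals. TEK (chr9:27108975-27109140, plus strand) has 3 CG pairs in 166 bases, DOCK2 (chr5:169637025-169637246, plus strand) has 10 in 222, and KCTD16 (chr5:144170623-144170831, plus strand) has 18 in 209. Of the at least 2-fold lower genes, 27 had a RefSeq promoter and 33.3% of those had a CpG ratio of 0.6 or more.
TEK: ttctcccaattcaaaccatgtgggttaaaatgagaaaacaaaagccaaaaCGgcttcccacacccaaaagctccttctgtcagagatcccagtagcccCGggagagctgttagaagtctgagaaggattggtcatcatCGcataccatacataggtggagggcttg
DOCK2: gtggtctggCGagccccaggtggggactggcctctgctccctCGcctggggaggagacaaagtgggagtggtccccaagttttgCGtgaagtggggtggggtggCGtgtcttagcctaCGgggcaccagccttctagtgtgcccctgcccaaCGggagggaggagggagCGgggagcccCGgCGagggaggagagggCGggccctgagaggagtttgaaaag
KCTD16: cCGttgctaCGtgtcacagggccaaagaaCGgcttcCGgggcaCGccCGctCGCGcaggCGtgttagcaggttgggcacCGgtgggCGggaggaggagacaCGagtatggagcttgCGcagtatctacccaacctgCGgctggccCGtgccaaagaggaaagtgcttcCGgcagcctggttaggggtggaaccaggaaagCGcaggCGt

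For a few increases, the mean of mCherry and scramble lay nearer to CR3 than to reverse. The 6 with the largest increases, a mean of at least 100 and a mean log2 level of mCherry and scramble nearer to CR3 than to reverse were FBN2, LMNTD2, KAZALD1, ADGRB1, CPQ and GAB1. FBN2 (chr5:128257909-128659185), the microfibril protein fibrillin-2, stood at 166.3, 315.8 and 291.2 in CR3 and at 5.2, 5.1 and 1.8 in reverse. Its means were 3.51 in mCherry and 561.7 in scramble, so 2 of the 4 groups carried the transcript. The other 5 had log2 fold changes of 0.48 to 0.74. Taken alone, scramble lay nearer to reverse for LMNTD2, KAZALD1, ADGRB1 and CPQ, and mCherry for GAB1. For none of these 5 was reverse called against the mean of mCherry and scramble (limma adjusted p 0.135 to 0.716). Over all calls, the mean of mCherry and scramble lay nearer to CR3 for 149 of the 2626 higher genes and 121 of the 2592 lower genes. Among the at least 2-fold changes it did so for 26 of 807 and 27 of 54.

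Among genes with at least 1000 normalized reads in each group, the increases with the smallest p-values were in CALCOCO1, PLS3, TUG1, PROS1, TMEM59 and TP53INP2. CALCOCO1 (chr12:53708517-53727745), a coactivator and selective autophagy receptor, stood at 2476.6, 2172.8 and 2339.4 in CR3 and at 1296.7, 1302.7 and 1360.9 in reverse (log2 fold change 0.82, SE 0.058, limma adjusted p 9.69e-09). PLS3, the actin bundler T-plastin, rose from 3158 ± 107.6 to 4795 ± 181.7 (mean ± SD, n = 3). The noncoding RNA TUG1 rose from 2725 ± 137.1 to 3968 ± 206.1, and the anticoagulant protein S gene PROS1 from 1223 ± 89.8 to 2080 ± 58.5. TMEM59 had the smallest change of the 6, 0.42 on the log2 scale, with 4491.7, 4536.0 and 4522.6 in CR3 and 3362.1, 3362.0 and 3390.1 in reverse. TP53INP2, an autophagy cofactor, rose by 0.55.

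The decreases with the smallest p-values at that level were in PHLDB2, CAV1, IRS1, CD44, ANXA1 and F2RL1. PHLDB2 (chr3:111732497-111976517), which anchors microtubules at the cell cortex, stood at 1513.4, 1600.9 and 1598.6 in CR3 and at 3045.5, 2875.3 and 3232.7 in reverse, so that reverse was 1.94-fold higher. CAV1 (chr7:116524785-116561184), the main coat protein of caveolae, fell from 2584 ± 33.8 to 1448 ± 69.5 (log2 fold change -0.84, SE 0.049, limma adjusted p 1.47e-09). IRS1, an adaptor of the insulin receptor, fell by 0.79 on the log2 scale, from 2841.3, 2757.7 and 3040.2 in reverse to 1692.8, 1615.8 and 1695.3 in CR3. This contrasts in direction with IRS4, its family member, which was near absent from reverse and present in CR3. CD44, a hyaluronan receptor, fell by 0.73, and the annexin ANXA1 and the protease-activated receptor F2RL1 by 0.66 each.

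Other decreases among the 12 largest were CYP24A1, which inactivates vitamin D (log2 fold change -1.15), the sodium channel subunit SCNN1A (-1.06) and the retinal reductase DHRS3 (-1.02). The synaptic vesicle priming gene UNC13A fell by 1.01, the lincRNA LNCAROD by 0.97 and the ligand gene WNT16 by 0.91. SCNN1A stood at 809.0, 551.8 and 710.0 in CR3 and 1393.6, 1237.2 and 1664.9 in reverse, with the highest CR3 library well under the lowest reverse library. WNT16 went from 677.0, 617.6 and 644.9 in reverse to 384.0, 328.1 and 321.0 in CR3.

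Genes of cell division were lower in CR3. Of 25 G2/M and mitosis genes, all tested, 23 were lower and 0 higher, with a median log2 fold change of -0.59 against 0.007 over all genes tested. The counts of this list and of those below are to be read against 17.3% higher and 17.1% lower over all genes tested. The share of lower genes also rose with level, to 39.67% above 2000 normalized reads. CDC20, which activates the anaphase-promoting complex, stood at 2511.2, 2660.5 and 2578.6 in CR3 and at 4156.8, 4743.5 and 4161.8 in reverse (log2 fold change -0.75, limma adjusted p 6.96e-09). The mitotic kinesins KIF20A and KIF2C fell by 0.63 and 0.59 and the survivin gene BIRC5 by 0.53. Only CDC25C and CENPE of the list were not called. The list's median was 0.01 for reverse against mCherry and scramble and -0.58 for CR3 against them.

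Of 27 DNA replication and G1/S genes, 23 were lower and 0 higher, with a median of -0.38. RRM2, the small subunit of ribonucleotide reductase, stood at 4750.5, 5525.4 and 5122.1 in CR3 and at 8008.4, 8056.4 and 7104.8 in reverse. Thymidylate synthase TYMS had the same log2 fold change as RRM2, -0.59, and the replicative helicase subunits MCM7 and MCM3 fell by 0.50 and 0.40. The licensing factor CDT1, GINS3, E2F1 and CDC45 were not called. With scaling by library total, 19 of the 27 were lower.

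The transcription factor MYC and its targets were lower in CR3. MYC (ENSG00000136997) stood at 1380.8, 1341.2 and 1310.5 normalized reads in CR3 and at 2107.0, 2329.3 and 2263.9 in reverse, which was 1.66-fold higher (log2 fold change -0.73, limma adjusted p 1.39e-08). Of 22 MYC targets written, 20 were tested, and 19 of these were lower and 0 higher, with a median of -0.42. The mitochondrial chaperonin HSPD1 stood at 14271.0, 15631.6 and 14318.2 in CR3 and 24108.7, 23723.5 and 22401.9 in reverse. Its partner HSPE1 fell by 0.65, the transferrin receptor TFRC by 0.66 and lactate dehydrogenase LDHA by 0.64. The list's median was 0.02 for reverse against mCherry and scramble and -0.41 for CR3 against them.

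MYC with its partner MAX binds the E-box CACGTG. This motif, which reads the same on both strands, was in 9 of the 19 MYC targets with a RefSeq promoter, in 10.06% of the promoters of all tested genes and in 7.43% of all 27305 RefSeq promoters. It was in 11.85% of the promoters of lower genes and 8.97% of those of higher genes. PPAT and SRM are shown, chosen after their values were seen, as list members with the motif in the stretch upstream of both gene models. Capitals mark CACGTG. PPAT (chr4:56435616-56435865, minus strand), the first enzyme of purine synthesis, stood at 1494.7, 1672.8 and 1526.3 in CR3 and 2085.2, 1946.9 and 1902.4 in reverse (log2 fold change -0.34). SRM (chr1:11060025-11060268, minus strand), spermidine synthase, went from 1441 ± 119 to 1230 ± 101 (-0.23). A match is a description of the letters and shows no binding.
PPAT: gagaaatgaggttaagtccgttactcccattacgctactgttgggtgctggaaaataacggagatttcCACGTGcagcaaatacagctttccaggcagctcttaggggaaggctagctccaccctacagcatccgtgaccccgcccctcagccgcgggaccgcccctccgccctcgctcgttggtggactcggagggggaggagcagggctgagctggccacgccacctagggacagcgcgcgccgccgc
SRM: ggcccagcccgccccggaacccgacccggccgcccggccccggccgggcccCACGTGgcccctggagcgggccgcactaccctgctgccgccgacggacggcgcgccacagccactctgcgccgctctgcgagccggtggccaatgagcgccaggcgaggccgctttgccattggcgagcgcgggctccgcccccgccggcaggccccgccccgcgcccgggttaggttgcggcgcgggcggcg

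Ribosome genes were lower in CR3. The list held 35 genes of cytosolic ribosomal proteins, of which 31 were lower and 0 higher, with a median of -0.30. Lower were 17.1% of all genes tested and 39.67% of those above 2000 normalized reads, which had a median of -0.09. RPL14 stood at 5488.5, 5382.5 and 5205.0 in CR3 and 7087.7, 7498.1 and 7613.9 in reverse, and RPS23, RPL30 and RPL35 fell by 0.40, 0.38 and 0.35. With scaling by library total, 25 of the 35 were lower. The summed level of the list was 474614.5 to 511697.8 normalized reads in CR3 and 580623.5 to 608161.1 in reverse, without overlap.

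Genes that lie near strong enhancers in colorectal cancer were lower. Of 18 written, 15 passed the read filter and were tested, 11 were lower and 0 higher, and the median was -0.41. TCF7L2, the main Wnt transcription factor of the gut, stood at 2254.3, 2321.9 and 2337.3 in CR3 and 3562.1, 3549.2 and 3735.4 in reverse (log2 fold change -0.65, limma adjusted p 1.08e-08). The zinc finger factor KLF5 fell by 0.55, the epithelial factor ELF3 by 0.47 and the growth factor VEGFA by 0.38. SOX9 fell by 0.60. Not called were EHF, HNF4A, CDX2 and CCND1. With scaling by library total, 11 of the 15 were lower as well.

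Enhancer condensates are known to contain coactivators of transcription. Of 44 genes of Mediator, BET proteins, p300 and related kinases, 4 were higher and 7 lower (17.3% and 17.1% over all genes tested), with a median of -0.03. The Mediator subunit MED1 stood at 3697 ± 201 in CR3 and 3890 ± 57.9 in reverse, and the acetyltransferase EP300 at 3321 ± 401 and 3258 ± 142 (mean ± SD, n = 3). Neither of them, chosen after their values were seen, passed the limma test. CDK19, a Mediator kinase, went from 986.3, 953.0 and 934.5 in reverse to 702.5, 819.3 and 753.6 in CR3, but it was also called as higher in reverse than in mCherry and scramble (log2 fold change 0.32, limma adjusted p 0.00652). CDK7 of the general factor TFIIH fell by 0.30, and the Mediator subunits MED23 and MED29 rose by 0.26 and 0.22. Among 12 RNA polymerase II subunits, POLR2D, POLR2E and POLR2H were lower, by 0.17 to 0.26, and POLR2D lost its call with scaling by library total. Under that scaling the median of the Mediator list moved to 0.06 and that of the polymerase list from -0.06 to 0.02, with 9 and 0 genes higher and 3 and 2 lower.

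Of 24 stress granule and P-body genes, 23 were tested, 2 were higher and 10 lower, with a median of -0.10. The poly(A)-binding protein PABPC1 stood at 36738.8, 34587.7 and 33950.8 in CR3 and 47562.2, 46619.7 and 46036.9 in reverse. FXR1 and the stress granule nucleator G3BP1 fell by 0.31 and 0.27. The increases were EDC3 and FXR2, at 0.15 and 0.20. With scaling by library total the list held 4 increases and 7 decreases.

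Of 16 tested Wnt targets and feedback genes, CD44, RNF43, AXIN2 and DKK1 were lower and PROX1 and LEF1 higher, counts to be read against 17.1% lower and 17.3% higher over all genes tested. The median was -0.01. DKK1, a secreted Wnt inhibitor, fell by 0.33, and the feedback inhibitor AXIN2 by 0.51. LEF1, a partner of beta-catenin, stood at 73.8, 62.3 and 63.8 in CR3 and at 2.1, 0.0 and 0.0 in reverse, a ratio of 101.6 (interval 27.8 to 844.6). PROX1 reached 43.0, 45.6 and 55.3 against 1.0, 0.0 and 0.0. Among the 10 Groucho corepressors and TCF/LEF factors, TLE4 joined LEF1 as an increase (262.5, 293.0 and 266.8 against 2.1, 0.0 and 0.9) and TCF7L2 was the decrease. The medians of both Wnt-related lists turned to 0.07 and 0.08 with scaling by library total.

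Most tested NRF2 targets and glycolysis genes were lower. Of 19 NRF2 targets, 13 were lower and 0 higher, with a median of -0.28. The organic anion exporter ABCC2 stood at 1484.5, 1425.4 and 1383.9 in CR3 and 2769.5, 2433.6 and 2682.2 in reverse, and the quinone reductase NQO1, thioredoxin reductase TXNRD1 and glutathione reductase GSR fell by 0.47, 0.43 and 0.41. Of 17 tested glycolysis genes, 11 were lower and 0 higher, with a median of -0.29. The enolase ENO1 fell from 50080 ± 2401 to 36560 ± 2884, and PFKP and LDHB by 0.37 and 0.36. Scaling by library total left 8 of them lower and 1 higher.

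Among 22 tested ATF4 targets and amino acid genes, 10 were lower and 3 higher. MTHFD2, a mitochondrial folate enzyme, fell by 0.47 and the cystine transporter SLC7A11 by 0.70, while CBS, VLDLR and the stress sensor SESN2 rose. CBS and VLDLR were under 10 reads in all reverse libraries, whereas SESN2 went from 458.3, 524.6 and 487.5 in reverse to 950.1, 843.0 and 841.8 in CR3. Of 22 cholesterol synthesis genes, 10 were lower and 1 higher with the deposited size factors, and 4 and 1 with scaling by library total. INSIG1, which holds the sterol sensor in the ER, fell by 0.52 and squalene epoxidase SQLE by 0.37. INSIG1 was also called as higher in reverse than in mCherry and scramble, by 0.20 on the log2 scale (limma adjusted p 0.0359). Hypoxia targets held 1 increase and 2 decreases among 15, against 17.3% and 17.1% over all genes tested.

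**Figure D4:**
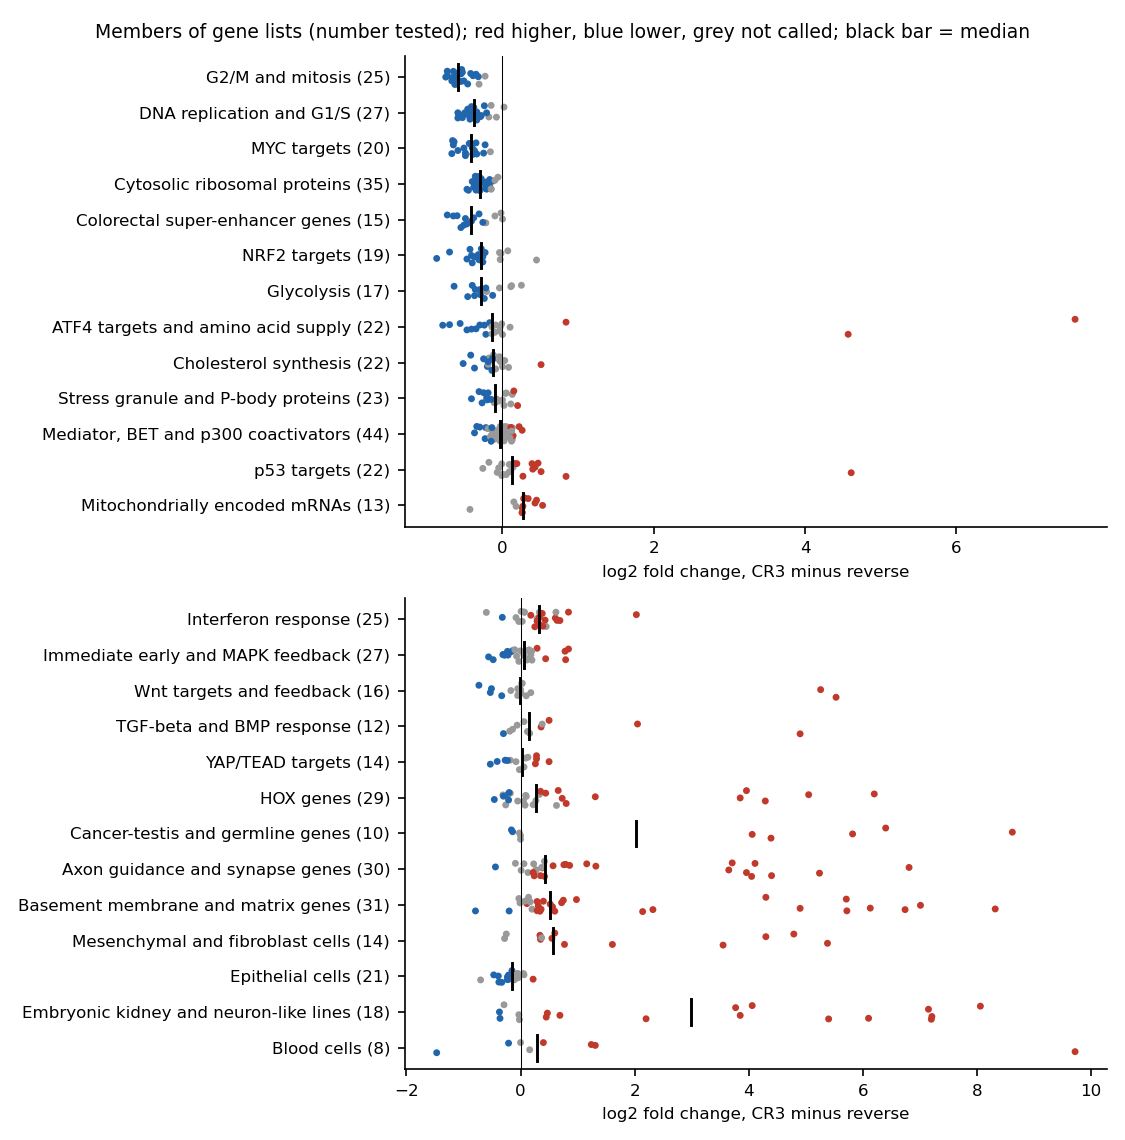
Each point is a tested member of a gene list, placed by its log2 fold change (CR3 minus reverse), red where called higher, blue where called lower and grey where not called, with a black bar at the list's median. Lists of the cell cycle, MYC targets and ribosomal proteins form tight blue clusters between -1 and 0. Lists of matrix, axon guidance, mesenchymal and embryonic kidney and neuron-like genes have long red tails to the right of 2, while the epithelial list has none.

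p53 targets changed in 1 direction. Of 22 genes, 10 were higher and 0 lower, with a median of 0.12. SESN2 rose by 0.84, ZMAT3, an RNA-binding protein, by 0.51, and the apoptosis gene BAX by 0.43, from 1102 ± 64.3 to 1482 ± 97.8. SPATA18, a mitochondrial quality control gene, stood at 120.5, 117.5 and 115.9 in CR3 and at 3.1, 5.1 and 3.6 in reverse. CDKN1A, the p21 gene (5502 ± 301 in CR3, 5000 ± 174 in reverse, limma adjusted p 0.0855), and MDM2 (4136 ± 289 and 4152 ± 97.0, limma adjusted p 0.93) were not called.

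Interferon response genes were higher in 13 of 25 tested, with 1 lower and a median of 0.33. IFI6 stood at 1206.1, 733.3 and 1178.7 in CR3 and 677.0, 573.6 and 638.6 in reverse, IFITM1 rose by 2.03, and the RNA sensor DDX58 (RIG-I) rose by 0.38. OAS3, an RNA-sensing synthetase, was the decrease, at -0.32. IFITM1 was not called where the decimal marks were restored without the group labels. CR3 libraries varied more than reverse ones in this list, with a summed level of 36631.6 to 42091.9 against 35415.7 to 35864.8. The second CR3 library was the lowest of the 3 for IFI6 and IFITM1. The list's median was -0.09 for reverse against mCherry and scramble and 0.20 for CR3 against them.

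The mRNAs encoded by the mitochondrial genome rose in 10 of 13 cases, with 0 lower and a median of 0.27. MT-CYB, the cytochrome b of complex III, stood at 43354.9, 35519.3 and 35538.8 in CR3 and at 24534.7, 28465.9 and 26129.2 in reverse. The complex I genes MT-ND5, MT-ND2 and MT-ND3 rose by 0.43, 0.34 and 0.26. In mCherry, however, MT-CYB averaged 37000, near CR3, and in scramble 22610. MT-ND2 and MT-ND3 averaged 39210 and 15340 in mCherry, above their CR3 means of 36890 and 14600, and 27360 and 11740 in scramble. MT-ND5 averaged 28100 in mCherry and 17620 in scramble. These transcripts thus also varied between groups without CR3. CR3 was called higher than the mean of mCherry and scramble for MT-CYB and MT-ND5 but not for MT-ND2 and MT-ND3.

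Of 27 immediate early and ERK feedback genes, 5 were higher and 8 lower, against 17.3% and 17.1% over all genes tested. JUN stood at 756.7, 742.1 and 726.0 in CR3 and at 449.9, 426.4 and 415.5 in reverse, and EGR3 rose by 0.79 and EGR1 by 0.44. IER3 fell by 0.56, FOSL2 by 0.48 and PHLDA1 by 0.31. YAP/TEAD targets held 4 increases and 4 decreases of 14, among the decreases AXL (-0.53) and MYOF (-0.41). Of 12 tested TGF-beta and BMP genes, 4 were higher and 1, ID1, lower. SMAD7 stood at 42.0, 43.9 and 69.1 in CR3 and 10.4, 13.3 and 10.8 in reverse. ID1 lost its call with scaling by library total, and SMAD7 where the decimal marks were restored without the group labels.

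Matrix genes were among the groups with the most increases. Of 31 tested basement membrane and matrix genes, 23 were higher and 2 lower, with a median of 0.52, and 8 of the 23 had under 10 reads in all reverse libraries. COL4A1, a chain of collagen IV, stood at 127.1, 143.0 and 138.2 in CR3 and at 4.2, 4.1 and 2.7 in reverse. EMILIN3 had 1 read in reverse, a ratio of 500.4 (interval 89.4 to 19800), and the heparan sulfate carrier GPC6 had none and was at least 17.4-fold higher. The laminin chain LAMA1 rose from 21.8 ± 4.78 to 112 ± 8.88, while LAMA2 fell by 0.79 and LAMB3 by 0.20. LAMB3 lost its call with scaling by library total, and also without CR3 replicate 2 or 3 or reverse replicate 2 or 3. The collagen cross-linking enzyme LOX had no read in reverse and was at least 5.49-fold higher.

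Axon guidance and synapse genes showed 20 increases and 1 decrease, EFNB2, among 30 tested, with a median of 0.42. Under 10 reads in all reverse libraries were 8 of the 20. ROBO1, a receptor for Slit ligands, stood at 223.3, 282.5 and 256.2 in CR3 and at 1.0, 1.0 and 1.8 in reverse, and ROBO2 had no read in reverse and was at least 5.59-fold higher. EPHA7, an ephrin receptor, reached 55.1, 72.8 and 79.7 against 1.0, 2.0 and 0.0. NRXN3 was at least 4.98-fold higher than in reverse, but at 14.8 in CR3 it was no higher than its mean of 22.3 in mCherry. Scramble, like reverse, had no NRXN3 read. Reverse was called as lower than the mean of mCherry and scramble (log2 fold change -2.26, limma adjusted p 6.64e-05), a difference that rests on mCherry.

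HOX genes mark position along the body axis. Of 29 tested, 11 were higher and 5 lower, against 17.3% and 17.1% over all genes tested, so the decreases lay near that share. Of the 11 increases, 5 had under 10 reads in all reverse libraries. Of the HOXD genes, HOXD13, HOXD10, HOXD9, HOXD11 and HOXD3 were higher, HOXD8 was not called (log2 fold change 0.10), and HOXD1, HOXD4 and HOXD12 did not reach the read filter. HOXD13 stood at 114.0, 144.7 and 135.0 in CR3 and 1.0, 0.0 and 1.8 in reverse, and HOXD10 at 67.3, 78.9 and 74.4 against 0.0, 3.1 and 1.8. The decreases were HOXB8, HOXB4, HOXA9, HOXA7 and HOXB7, by 0.20 to 0.46. Scaled by library total, 12 were higher and 1 lower, and HOXB4, HOXA9, HOXA7 and HOXB7 lost their call.

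Of 39 cancer-testis and germline genes, 11 passed the read filter and 10 were tested, with 5 higher and 2 lower. Over all genes tested the shares were 17.3% higher and 17.1% lower. Of the 5 increases, 4 had under 10 reads in all reverse libraries and passed the filter through their CR3 reads. MAGEA6 stood at 196.2, 204.4 and 204.1 in CR3 and at 3.1, 2.0 and 2.7 in reverse, MAGEA12 at 128.9, 106.1 and 131.8 against 0.0, 2.0 and 0.0, and LIN28B, an inhibitor of let-7 processing, rose by 4.06. MAGEA3 in contrast was present in both groups, at 1623 ± 49.2 and 1787 ± 40.6, and was called lower (log2 fold change -0.14, limma adjusted p 0.0431). With scaling by library total, MAGEA3 and the other decrease of the list lost their call, and MAGEA3 also lost it without a read filter, with the replicate block and without any 1 library but CR3 replicate 3. Reads of the MAGEA genes may be shared between near-identical copies, so their separate values are uncertain. Of 15 imprinted genes, 3 were higher and 5 lower, against 17.3% and 17.1% over all genes tested. With scaling by library total, 5 were higher and 3 lower. PEG10 fell from 440.6, 403.9 and 436.2 to 220.5, 243.9 and 217.9, MEST fell by 0.42, and DIRAS3 and IGF2 rose by 0.64 and 0.31. IGF2 averaged 1103 in CR3 and 1137 in mCherry, and CR3 was not called against the mean of mCherry and scramble (limma adjusted p 0.156).

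The noncoding RNAs named here had among the largest changes of those called with a mean of at least 50 normalized reads. HOTAIRM1, an antisense RNA of the HOXA cluster, rose from 46.8 ± 7.48 to 109 ± 17.4 (mean ± SD, n = 3), and DNAH10OS and LINC01547 rose by 1.10 and 0.96. MIR100HG fell from 561.4, 508.2 and 624.2 to 271.9, 345.6 and 318.9, LINC00511 by 0.85 and CASC8, a lncRNA near MYC, by 0.84. No source used here gives the strand setting of the counting, so antisense and overlapping genes such as HOTAIRM1 cannot be separated from their partners with certainty. Over types, 13.39% of 545 antisense genes were higher and 6.42% lower, against 18.49% and 18.73% of 12971 protein-coding genes.

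Markers of other cell types moved with these changes, and the part of such cells in the results was not tested. In bulk RNA, more cells of a type and more RNA per cell cannot be told apart. Of 23 mesenchymal and fibroblast markers, 14 were tested, with 11 higher and 0 lower and a median of 0.57. Of the 11, 3 had under 10 reads in all reverse libraries. VIM stood at 770.7, 730.7 and 791.9 in CR3 and 58.3, 61.4 and 74.7 in reverse, ACTA2 at 468.0, 464.9 and 493.2 against 153.1, 161.6 and 150.2, and N-cadherin CDH2 at 114.0, 140.4 and 135.0 against 1.0, 3.1 and 2.7. COL1A2, COL3A1, THY1, PDGFRA, PDGFRB, LUM and DCN did not reach the read filter. The summed level of the list, including genes below the filter, was 10074 to 12262 in CR3 and 7071 to 7505 in reverse.

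Of 21 tested epithelial markers, 10 were lower and 1 higher, with a median of -0.15. EPCAM stood at 4205.8, 4377.2 and 4351.5 in CR3 and 5251.5, 4932.6 and 4946.1 in reverse, and ESRP1, an epithelial splicing factor, and KRT19 fell by 0.38 and 0.33. Scaled by library total, 5 were lower. The summed level was 79120 to 91893 in CR3 and 92775 to 98582 in reverse. CDH1, E-cadherin, was not called.

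In the list of embryonic kidney and neuron-like lines, 18 of 30 genes were tested, 13 were higher and 2 lower, and the median was 2.98. Of the 13, 8 had under 10 reads in all reverse libraries. IRS4, BEX4, NEFM and UCHL1 were the largest. NEFM, a neurofilament subunit, stood at 128.9, 133.3 and 180.7 in CR3 with no read in reverse, and UCHL1, a deubiquitinating enzyme abundant in neurons, at 442.8, 545.6 and 492.1 against 6.2, 2.0 and 0.9. The kidney factor PAX2 was at 239 ± 14.7 in CR3 and 241 ± 6.57 in reverse (limma adjusted p 0.917), and NEFL, LHX1 and ELAVL4 had no read in either group. Of the 30 genes, 3 had no read in CR3 and 10 none in reverse. The summed level was 4290 to 4468 in CR3 and 2529 to 2607 in reverse.

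Blood, endothelial and neuronal lists were thinly filled. Of 20 blood markers, 8 were tested, with LAPTM5, ITGB2, CD52 and CORO1A higher and LCP1 and LYN lower, and the defining markers PTPRC, CD48, CD3E and TYROBP had no read in either group. Of 12 endothelial markers, 5 were tested. TEK was lower and TIE1 higher in CR3, and PECAM1 and CLDN5 had no read in either group. Of 7 tested neuronal markers, NEFM and SYP were higher and SYT1, TUBB3 and STMN3 lower. TUBB3 and STMN3 lost their call with scaling by library total.

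Chromosomes differed in how many of their genes changed. On chromosome X, 35.32% of 504 tested genes were higher and 10.12% lower, against 17.3% and 17.1% over all genes. Of its 178 higher genes, 51 had under 10 reads in all reverse libraries and 127 did not. Chromosome 22 had 26.17% higher and 6.74% lower of 386, and chromosome 8 the opposite, with 13.04% higher and 26.65% lower of 514. The median log2 fold change was 0.12 on X, 0.13 on chromosome 22 and -0.07 on chromosome 8. For reverse against mCherry and scramble the median was 0.00 on X and -0.01 on chromosome 22. With scaling by library total, the shares of higher and lower genes were 44.64% and 5.75% on X, 41.19% and 3.11% on 22, and 19.65% and 15.56% on 8, so that on chromosome 8 the balance turned to the higher side.

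**Figure D5:**
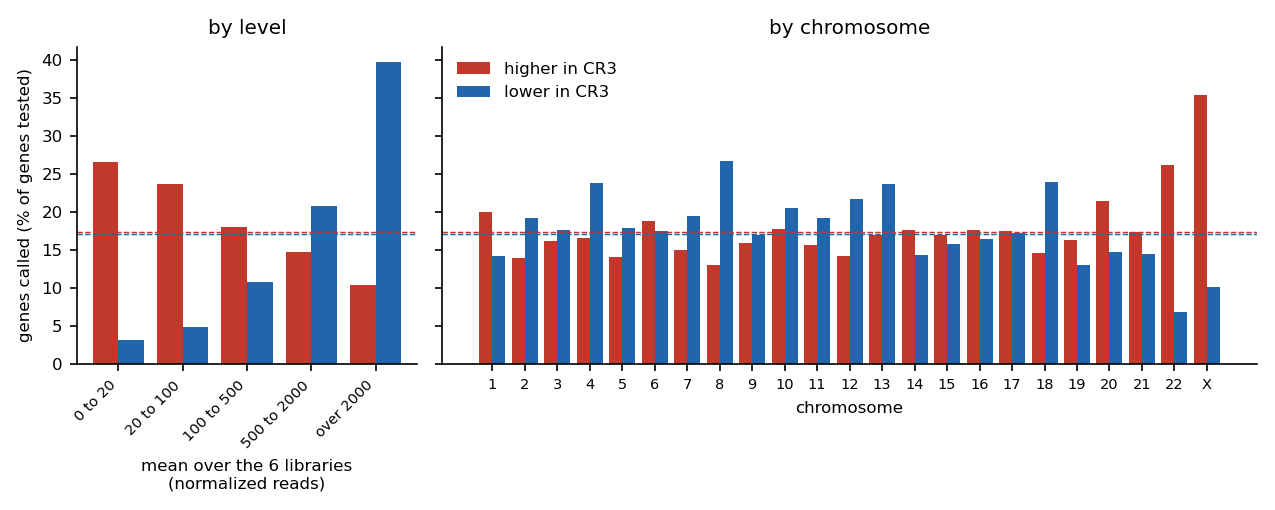
Bars give the percentage of tested genes called higher (red) and lower (blue) in CR3 against reverse, by mean level over the 6 libraries (left) and by chromosome (right). Dashed lines mark the shares over all genes tested, 17.3% and 17.1%. Red bars shrink and blue bars grow with level, and of the chromosomes shown X and 22 have the tallest red bars.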

How the data were processed

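PolyA RNA of 12 HCT116 libraries was measured, grouped by the genotype in the labels, with replicate numbers from the titles. The submitters' processing notes name GRCh38, STAR and featureCounts, then DESeq2 and edgeR, and also MultiQC, GATK, Salmon, Trim Galore and FastQC. Versions, annotation and strand setting: not given in the sources used here. The authors deposited counts per gene over a library size factor, as the values themselves show, in a form that lost the decimal mark. Each was restored as a whole multiple of the library's 1-read value (all 265152 non-zero cells, within 1e-07), with the power of 10 chosen by likelihood using group labels. Cells whose alternatives lay within a likelihood ratio of 20 were ambiguous (0.774% in CR3 and reverse), and genes with 1 were left out. A gene that changed by about a power of 10 in 1 group can be misread.

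Tests used R 4.3.3 with limma 3.58.1, fitting log2(normalized reads + 1) with a trend, in 1 model of the 4 groups over all 12 libraries. P-values were two-sided and adjusted by Benjamini-Hochberg over 15139 genes, called under 0.05. The method was tested on simulated data, with 25 genes at each fold. At folds of 0.1 and 0.25 in CR3, 3 and 20 genes were tested, against 25 each at folds of 4 and 10. All of those tested at these folds were called. Smaller changes were called less fully: 23 of 24 tested at a fold of 0.5, 18 of 23 at 0.667, 18 of 25 at 1.5 and 22 of 25 at 2. Of 14797 unchanged genes, 15 were called. Restoring, tables and figures used Python 3.11.15 with numpy 2.4.6, pandas 2.3.3, scipy 1.17.1 and matplotlib 3.10.9. Symbols and gene positions came from GENCODE 29 on GRCh38, matching 15310 of 15665 identifiers. Promoters came from RefSeq (GRCh38.p14).

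The genes, the 33 gene lists and the rules were chosen with earlier results of these data known. Named genes were called genes with a symbol and no overlap between the CR3 and the reverse libraries. They held the 12 largest changes each way with a mean of at least 100 normalized reads. They also held the 6 smallest p with at least 1000 in each group and the 6 largest each way with the mean of mCherry and scramble nearer to CR3. Up to 4 per list and 4 noncoding genes each way with a mean of at least 50 were added. Other members were named after their values were seen. The rule and the lists also hold a few genes that are not reported here. Floors of 3 reads per library and exact 95% intervals cover counting error only. Alternatives covered pseudocount, filter, scaling, model, block, weights, ambiguous cells, restoring without labels and leaving out each library.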

Additional observations from a re-analysis of the deposited data

How the results depend on the processing

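Scaling by library total gave 4056 genes higher and 1546 lower. The count of at least 2-fold increases (807) became 1493 without a filter, 307 with a filter of 50 reads and 383 with powers of 10 chosen without group labels, where 14462 genes were tested. The at least 2-fold decreases (54) became 35 with a pseudocount of 5, 152 without a filter, 18 with 50 reads and 25 without group labels. Reverse against the mean of mCherry and scramble (64 calls) gave 98 without a filter, 28 with 50 reads and 28 without group labels, alternatives chosen after seeing the data. The other settings moved the counts by under 1.5 times. Leaving out each CR3 and reverse library in turn gave 2065 to 2534 genes higher, 2036 to 2492 lower, 777 to 824 at least 2-fold higher, 49 to 66 at least 2-fold lower, and 45 to 63 calls for reverse against mCherry and scramble. The cause of these differences was not tested.

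Same-numbered libraries did not deviate together (correlations -0.015, -0.027 and 0.004), so the numbers give no pairing, and the fit with the replicate block gave 2445 higher and 2387 lower. None of the genes named by the rule and of the 363 called list members changed direction where it could be fitted. Of the 363, scaling by library total lost the call of 51, restoring without group labels of 7 of 326, and leaving out 1 library of 37 to 59. Among those in the text, POLR2D, LYN, TUBB3, ID1, STMN3, LAMB3, SRM, MAGEA3, HOXB4, HOXA9, HOXA7 and HOXB7 lost their call with scaling by library total, CORO1A, EDC3 and MAGEA3 without a filter, EDC3, HOXA7, HOXB4 and MAGEA3 with the 6 libraries alone, CORO1A and MAGEA3 with the block, SKIL with the block, and IFITM1 and SMAD7 without group labels. Leaving out 1 library lost the call of CPQ without CR3 replicate 1, of POLR2D without reverse replicate 1, of ID1 without CR3 replicate 2 or 3 or reverse replicate 1, of TUBB3 without CR3 replicate 2 or reverse replicate 1 or 3, and of SKIL without any library but reverse replicate 3. Leaving out 1 library also lost the call of CORO1A (any but reverse replicate 3), EDC3 (CR3 1 or 2, reverse 1 or 3), HOXB4 (CR3 1 or 3, reverse 3), HOXB7 (CR3 1, reverse 2), HOXA7 (CR3 2 or 3, reverse 1 or 2), HOXA9 (CR3 3, reverse 1 or 2), STMN3 (CR3 2) and SRM (CR3 2, reverse 2). Without group labels, 120 of the 157 named genes could be fitted. Depth limits genes under 10 reads in a group, whose fold is fixed only as a bound or an interval.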

Other observations

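Some of the genes high in reverse cells alone lie close together in the genome, which was noticed after their values were seen. UGT2B7 and UGT2B4, both glucuronosyltransferase genes on chromosome 4, stood at 141 and 43.6 normalized reads in reverse and at 0.0 and 2.29 in CR3, with no read in mCherry and scramble. On chromosome 7, AC008060.4 and AC008060.1 averaged 24.3 and 12.8 in reverse and 0.0 and 0.623 in CR3. Their neighbour INSIG1 was 1.43-fold higher in reverse than in CR3 but was not high in reverse alone. It averaged 3065 in reverse, 2136 in CR3, 2799 in mCherry and 2548 in scramble. Against the mean of mCherry and scramble, its log2 fold change was 0.20 for reverse and -0.32 for CR3. Near-identical UGT2B copies make their separate values uncertain.

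ACADL, an acyl-CoA dehydrogenase, and RNF150, a ring finger protein, were shared by CR3 and reverse. ACADL stood at 13.1, 22.8 and 26.6 in CR3 and at 53.1, 64.4 and 58.5 in reverse, with means of 0.28 in mCherry and 0.0 in scramble. RNF150 averaged 69.6 ± 20.8 in CR3 and 63.7 ± 10.9 in reverse (mean ± SD, n = 3), against 0.28 and 0.904 in mCherry and scramble, and did not pass the limma test between CR3 and reverse (adjusted p 0.865). CHRDL1, a BMP antagonist on chromosome X, had 23.9 ± 1.43 in CR3, no read in reverse and mCherry and a mean of 58.6 in scramble. RASGRF2, a Ras and Rac exchange factor, averaged 28.4 in CR3, 5.50 in reverse and 202 in scramble. Each of these genes was chosen after its values were seen.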
